A study of Mus musculus with 6 samples.

Results

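Chemokines, interleukins and their receptors were followed in NMuMG cells, a line of mouse mammary gland epithelium that takes on a mesenchymal shape when it is given TGF-β. Genes were taken by symbol: every Ccl, Cxcl, Ccr, Cxcr and Il gene with a number in its name, and Cx3cl1, leaving out 5 genes of the IL-6 and IL-11 system. Of the 18512 entries in the count table, 110 had such a symbol, and the 62 with a mean deposited count of at least 20 over the 6 libraries were used. The other 48 lay under that mean. Just outside stood Ccl4, with a mean of 19.67 and 104 of its counts in TGF-β+2APB replicate 2, and Ccl8, with a mean of 17.33. Just inside stood Ccl3, Ccl5 and Cxcl15, each with a mean of 21.33.

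Chemokines are small secreted proteins that steer moving cells. They are named CXC, CC or CX3C by the spacing of the first cysteines in the protein, and they act through receptors coupled to G proteins. Interleukins act through several receptor families: receptors of the IL-1 and IL-17 type lead through adaptor proteins to NF-κB, and cytokine receptors without kinase activity of their own lead through Janus kinases to STAT proteins. Epithelial cells make many of these ligands, among them those that attract neutrophils and monocytes.

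The cells received the vehicle DMSO, TGF-β (5 ng/ml), or this dose of TGF-β together with 50 uM 2APB, a compound that alters calcium entry through store-operated channels. The treatment is given as 24 h, but the sources differ on whether 2APB was added together with TGF-β or before it. Each group had 2 libraries of RNA from whole cultures, numbered replicate 1 and replicate 2, so p-values measure the spread between these libraries. No group received 2APB alone, and an action of 2APB by itself and an action on the TGF-β response cannot be told apart. Total counts ran from 71840570 to 79473182 per library. The values below are normalized counts, which are deposited counts scaled to the mean library, and each pair of values is replicate 1 followed by replicate 2.

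TGF-β+2APB replicate 2 stood apart from replicate 1 of its group. Of the 62 members, 16 (25.8%) were at least 4 times as high in replicate 2 as in replicate 1 after 1 was added to each normalized count, against 323 of 13353 genes tested (2.42%). The ratio of 4 was chosen after the values were seen. Of the 16, 6 were not tested without replicate 2, so they passed the minimum count through the library in which they are high. Among genes that passed it without replicate 2 the ratio was met by 10 of 55 members (18.2%) and by 195 of 13206 genes (1.48%). Ccl6 was counted at 1081 and 207 in DMSO, 111 and 56 in TGF-β and 61.4 and 8691 in TGF-β+2APB. Ccr1 was counted at 118 and 6.2 in DMSO, 13.6 and 2.08 in TGF-β and 1.98 and 1519 in TGF-β+2APB. For both genes a single library of the TGF-β+2APB group was high and the other lay among the lowest of the 6. Among the others that passed that ratio were Ccl3, Ccl9, Ccl22, Cxcl2, Cxcl5, Cxcl9, Cxcl10, Ccr2, Il1a, Il2rg, Il7r, Il10ra and Il33. Replicates of the other groups differed too: the ratio of 4 was met by 6 members in DMSO replicate 1 over replicate 2 (9.68%, all genes 0.524%) and by 4 in TGF-β replicate 1 over replicate 2 (6.45%, all genes 0.502%).

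Markers of other cell types moved with these libraries. Of 11 leukocyte markers in the table, 11 were highest in TGF-β+2APB replicate 2 and 9 passed the ratio of 4 in that group. Their summed level was 4705 and 1857 in DMSO, 1282 and 489.7 in TGF-β and 582 and 34762 in TGF-β+2APB. The most abundant of them was Lyz2, the lysozyme of macrophages and granulocytes, at 3591 and 1116 in DMSO, 789 and 189 in TGF-β and 156 and 28668 in TGF-β+2APB. Cd3e, which defines T cells, had 0 counts in 5 libraries and 2 in TGF-β+2APB replicate 2. Genes of the Y chromosome were also highest in that library: Eif2s3y had 82 counts there and at most 16 elsewhere, Ddx3y 54 and at most 14, Uty 24 and at most 2, and Kdm5d 18 and at most 2. The part of these signals in the results was not tested. Each count of changed members, over all and by role, is therefore also given without TGF-β+2APB replicate 2.

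The epithelial label was met by Krt8, Krt18 and Cdh1, while Epcam stayed between 52 and 158 counts and Cldn7 between 2 and 6. The 6 epithelial markers in the table summed to 562773 and 528335 in DMSO, 824931 and 702626 in TGF-β and 1374575 and 1308009.5 in TGF-β+2APB, with Krt8 the most abundant. Krt8 and Krt18 alone made this rise. Cdh1, at 91179.8 and 90601 in DMSO, 58611 and 47241 in TGF-β and 35058 and 41059.8 in TGF-β+2APB, and Krt19, at 45112 and 42138 in DMSO, 12509.5 and 8776 in TGF-β and 1687 and 3441 in TGF-β+2APB, were called lower with both treatments against DMSO, as was Epcam. The 5 endothelial markers summed to at most 51.3, with Kdr and Emcn at 0 counts in all libraries but TGF-β+2APB replicate 2. The 6 fibroblast markers summed to 142 and 163 in DMSO, 2339 and 2349 in TGF-β and 3104 and 2462 in TGF-β+2APB. Col1a1 was the most abundant of them under both treatments, and Dcn and Thy1 never passed 6 counts.

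**Figure D1:**
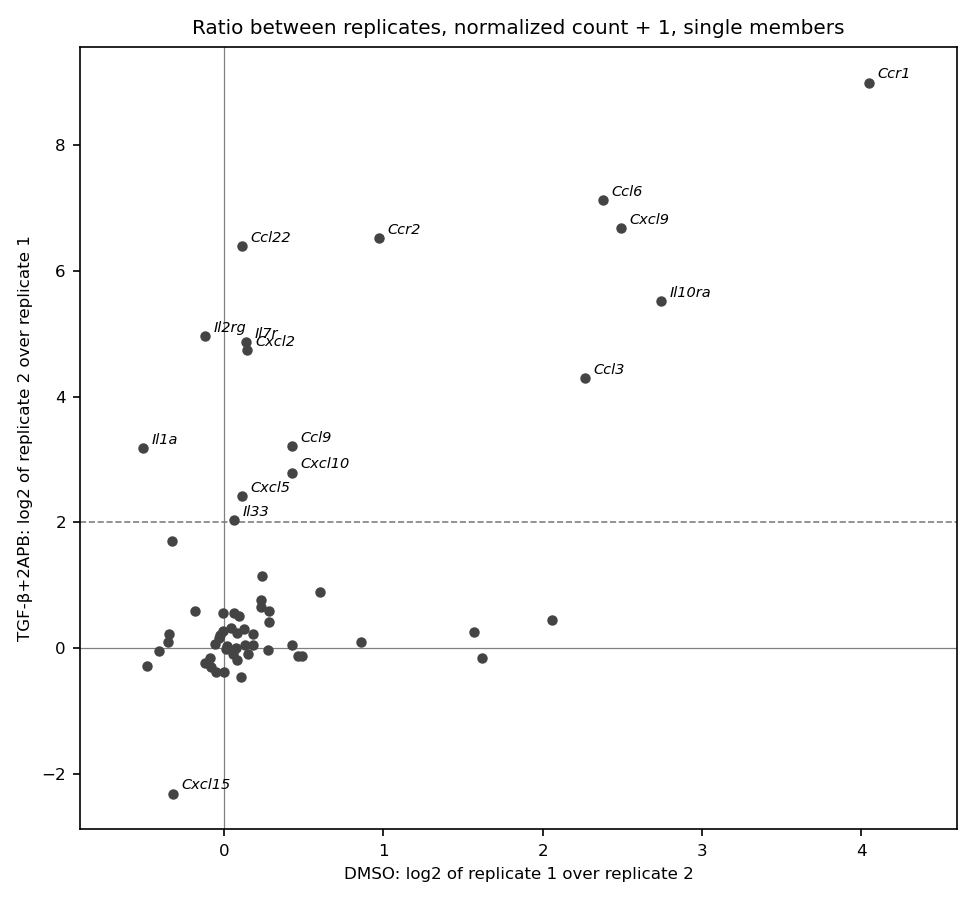
Each point is 1 of 61 members, with the log2 ratio of replicate 1 over replicate 2 in DMSO on the horizontal axis and of replicate 2 over replicate 1 in TGF-β+2APB on the vertical axis, after 1 was added to each normalized count. The 15 named points above the dashed line, the ratio of 4, are led by Ccr1, and Cxcl15 is the named point that lies low.

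With TGF-β against DMSO, which asks what TGF-β does to these cells, 24 of the 62 members changed: 13 were higher and 11 lower (edgeR quasi-likelihood FDR of 0.05 or less). Over all 13353 genes tested 41.5% changed, 21.8% higher and 19.7% lower, so the members' share of 38.7% lay near the background. Most of the CXC ligands that changed fell, and so did Ccl20 and Ccl2, whereas Ccl17, Il24, Il34, Il15, Il18rap, Il21r and Il13ra2 rose. The median log2 fold change was -0.20 over the members and -0.01 over all genes. In these bulk samples fewer cells that make a transcript and less of it per cell cannot be told apart. Without TGF-β+2APB replicate 2, which enters through the minimum count and the shared estimate of the spread, 55 members were tested and 29 changed (52.7%), against 36.1% of all genes, and the median was 0.015 over the members and 0.016 over all genes.

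With TGF-β+2APB against DMSO 31 members changed, 14 higher and 17 lower. Over all genes tested 52.8% changed, 25.6% higher and 27.2% lower. Here too the members did not stand far from the background. The median log2 fold change was 0.29 over the members and -0.003 over all genes, and without TGF-β+2APB replicate 2 the members' median was -0.44, so that its sign rests on that library. Without it 33 of 55 members changed (60.0%), against 40.1% of all genes. With TGF-β+2APB replicate 1 left out in its place, more members were called higher than lower. Both this comparison and the one before it use the same DMSO libraries.

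With TGF-β+2APB against TGF-β, which asks what 2APB adds, 17 members changed: 5 were higher and 12 lower. Over all genes tested 17.5% changed, 6.58% higher and 10.9% lower, and the members' share was 27.4%. A test of that difference in shares was not run. Il33, Cxcl5 and Cxcl1 fell, as did a group of receptors, while Ccl17, Cxcl13, Il24, Il15 and Il1rn rose. The median log2 fold change was -0.02 over the members and -0.004 over all genes, and without TGF-β+2APB replicate 2 it was -0.45 and -0.02. The count of changed members moved with single libraries: 11 of 55 members changed without TGF-β+2APB replicate 2 (20%, all genes 9.54%), 10 of 60 without DMSO replicate 1 (16.7%, all genes 6.46%) and 9 of 60 without DMSO replicate 2 (15%, all genes 6.26%), so calls over all genes fell as well. Of the 17 calls 10 were kept without TGF-β+2APB replicate 2, and 6 were kept whichever of the 6 libraries was left out. Without TGF-β+2APB replicate 1 the balance of the calls turned, with more members higher than lower. The share of members called then rose, while the share over all genes fell. The DMSO libraries enter this comparison through the minimum count and the shared estimate of the spread. The TGF-β libraries are those of the comparison with DMSO.

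**Figure D2:**
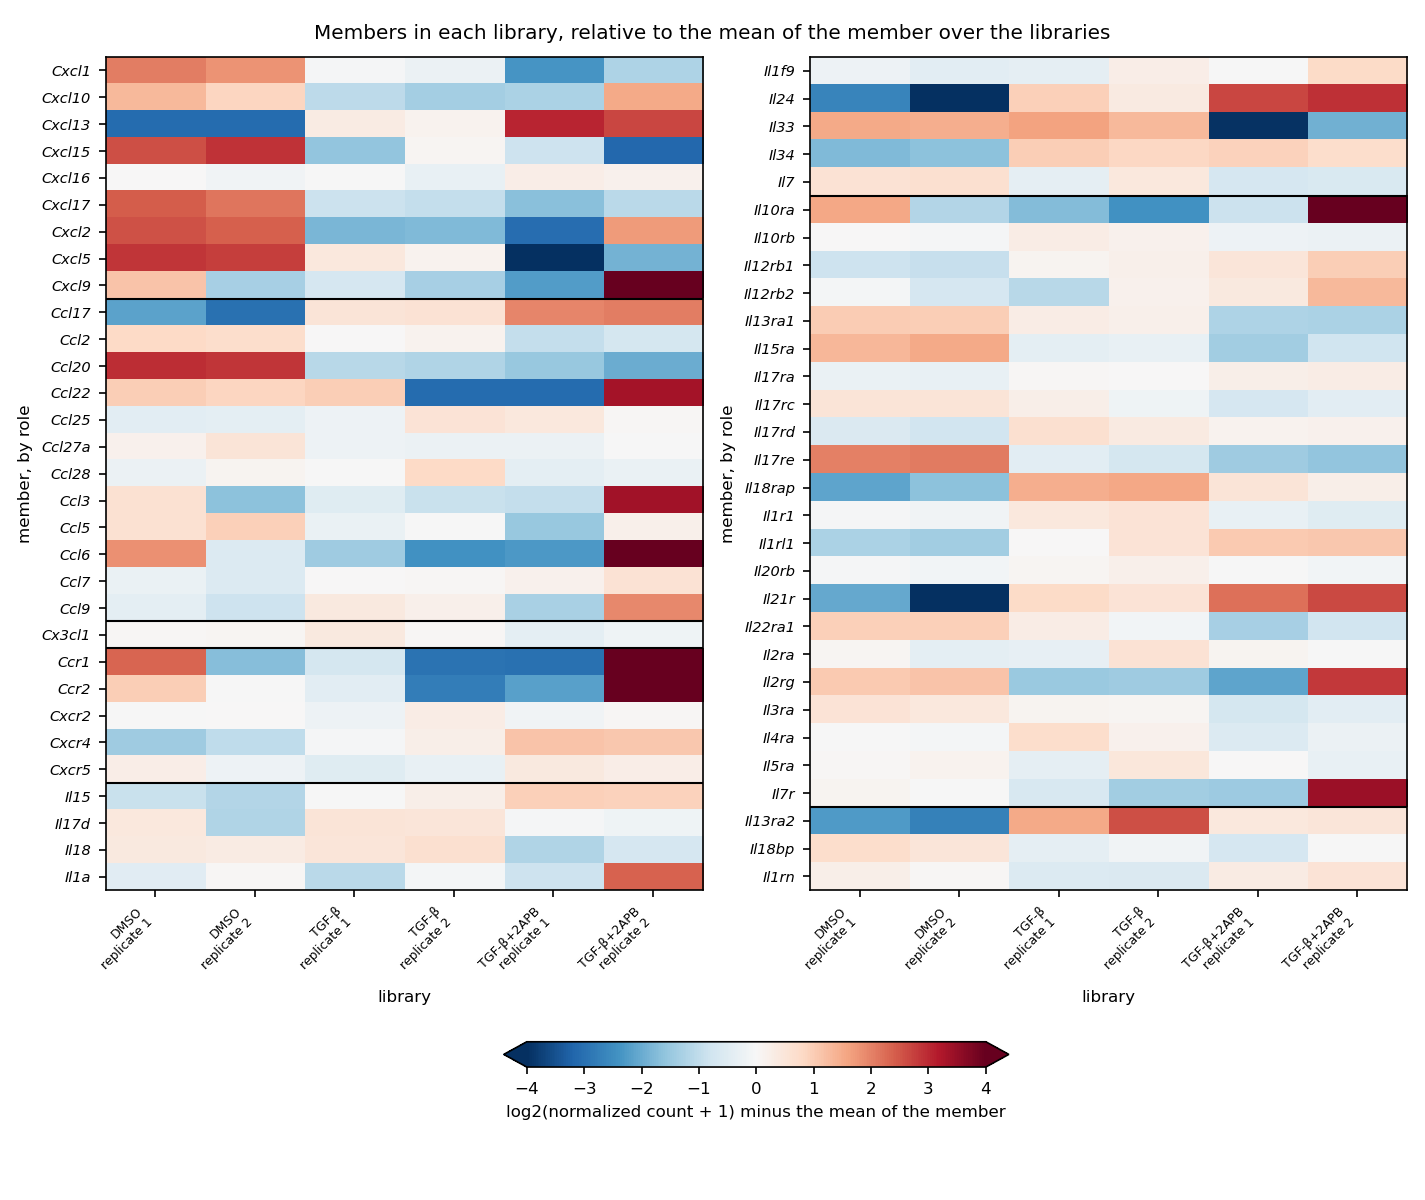
Colour gives log2 of the normalized count plus 1, minus the mean of the member over the 6 libraries, for each of 61 members in each library, with black lines between roles. Ccr1, Ccr2, Ccl6, Cxcl9 and Il10ra are above the end of the scale in TGF-β+2APB replicate 2 alone, while Ccl20, Cxcl5 and Cxcl1 are high in both DMSO libraries.

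Among the 9 CXC ligands, TGF-β lowered 4 and raised 1 (55.6%, all genes 41.5%). Without TGF-β+2APB replicate 2 it lowered 6 and raised none of the 7 still tested (85.7%, all genes 36.1%). Cxcl5, a neutrophil attractant that acts on Cxcr2, was counted at 23513 and 21718 in DMSO, 4303 and 3548 in TGF-β and 162 and 870.1 in TGF-β+2APB. It had the highest level per length of any member in DMSO, 12139 normalized counts per kb of exon, and the 3 groups did not overlap. TGF-β lowered it (log2 fold change -2.53, SE 0.67, edgeR quasi-likelihood FDR 0.0286), a call that was not made in 3 leave-outs (edgeR quasi-likelihood FDR 0.11 without DMSO replicate 1, 0.0965 without DMSO replicate 2 and 0.0536 without TGF-β replicate 2). With 2APB it was lower again than with TGF-β alone (log2 fold change -2.93, SE 0.70, edgeR quasi-likelihood FDR 0.0412), and this call was lost without a DMSO library (edgeR quasi-likelihood FDR 0.099 without DMSO replicate 1 and 0.1 without DMSO replicate 2) and with no filter on the mean count (edgeR quasi-likelihood FDR 0.0559). Against DMSO the fall with TGF-β+2APB was the larger (log2 fold change -5.45, SE 0.77, edgeR quasi-likelihood FDR 0.00222) and was called in each of the 6 leave-outs. Replicate 2 of TGF-β+2APB was above replicate 1 for this gene, and without it the log2 fold change against TGF-β was -4.60.

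Cxcl1, another Cxcr2 ligand, was counted at 5859 and 4971 in DMSO, 1381 and 1218 in TGF-β and 273 and 606 in TGF-β+2APB. The groups followed the order of Cxcl5, with DMSO above TGF-β and TGF-β above TGF-β+2APB. It fell with TGF-β (log2 fold change -2.06, SE 0.35, edgeR quasi-likelihood FDR 0.00593) and further when 2APB was present (log2 fold change -1.56, SE 0.35, edgeR quasi-likelihood FDR 0.0351), the latter not called without a DMSO library (edgeR quasi-likelihood FDR 0.0854 without DMSO replicate 1 and 0.086 without DMSO replicate 2). Against DMSO the change with TGF-β+2APB was larger still (log2 fold change -3.62, SE 0.37, edgeR quasi-likelihood FDR 0.000675). Without TGF-β+2APB replicate 2 the log2 fold change of Cxcl1 with TGF-β+2APB was -2.25 against TGF-β and -4.29 against DMSO. Cxcl2, a further ligand of this kind chosen for mention after its values were seen, was counted at 142 and 128 in DMSO, 5.84 and 6.23 in TGF-β and 1.98 and 78.9 in TGF-β+2APB. All but 1 of the treated libraries were near 6 or lower, and the exception was TGF-β+2APB replicate 2. Its change with TGF-β just missed the threshold (log2 fold change -4.45, SE 1.41, edgeR quasi-likelihood FDR 0.05003), and without that library it was called lower with TGF-β (log2 fold change -4.43, SE 0.33, edgeR quasi-likelihood FDR 0.000515) and in TGF-β+2APB (log2 fold change -5.98, SE 0.53, edgeR quasi-likelihood FDR 0.000733). Cxcr2, the receptor of these ligands, was counted at 220.1 and 225 in DMSO, 193 and 274 in TGF-β and 204 and 229 in TGF-β+2APB, and no comparison passed the test for it.

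Cxcl17, a chemokine of mucosal epithelium, was counted at 592 and 486 in DMSO, 60.4 and 56 in TGF-β and 33.7 and 51.3 in TGF-β+2APB, so every treated library was under both DMSO libraries. It fell with TGF-β (log2 fold change -3.21, SE 0.27, edgeR quasi-likelihood FDR 0.000557) and in TGF-β+2APB (log2 fold change -3.66, SE 0.28, edgeR quasi-likelihood FDR 0.00023). Cxcl15, known from lung epithelium, had 52 and 62 deposited counts in DMSO and at most 8 in any treated library. It was lower with TGF-β (log2 fold change -3.47, SE 0.93, edgeR quasi-likelihood FDR 0.0292) and in TGF-β+2APB (log2 fold change -4.78, SE 1.04, edgeR quasi-likelihood FDR 0.0112), and the first of these calls was not made without TGF-β replicate 1 (edgeR quasi-likelihood FDR 0.088 without TGF-β replicate 1). Without a DMSO library the gene was under the minimum mean count and was not tested, so it passed through the group in which it is high.

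Cxcl13, the B cell attractant that acts on Cxcr5, went the other way, and was counted at 0 and 0 in DMSO, 9.74 and 8.3 in TGF-β and 69.3 and 53.3 in TGF-β+2APB. Both DMSO libraries were at 0. The gene passed the minimum count through the TGF-β+2APB libraries, the group in which it is high. Against a floor of 3 counts per library it was at least 2.98-fold higher with TGF-β and at least 20.3-fold higher with TGF-β+2APB. Between the treated groups it was higher with 2APB (log2 fold change 2.75, SE 0.41, edgeR quasi-likelihood FDR 0.0176), with both TGF-β+2APB libraries above both TGF-β libraries. Without either TGF-β+2APB library it was under the minimum count and not tested. Its receptor gene Cxcr5 stayed between 25.3 and 47.5 and was not called, and part of its exons overlap Bcl9l on the other strand.

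Cxcl9 and Cxcl10, ligands of Cxcr3 that interferon induces, were not called by edgeR in any comparison with 6 libraries. DESeq2 called Cxcl10 with TGF-β against DMSO. Cxcl10 was counted at 692 and 514 in DMSO, 134 and 108 in TGF-β and 117 and 815 in TGF-β+2APB, so that TGF-β+2APB replicate 2 lay above both DMSO libraries and replicate 1 in the range of TGF-β. Without that library Cxcl10 was lower than in DMSO with TGF-β (log2 fold change -2.29, SE 0.23, edgeR quasi-likelihood FDR 0.00131) and in TGF-β+2APB (log2 fold change -2.35, SE 0.30, edgeR quasi-likelihood FDR 0.00257). Between the treated groups the log2 fold change of Cxcl10 was -0.06 without TGF-β+2APB replicate 2 and 2.72 without replicate 1. Cxcl16 ranged from 847 to 1247 and was not called.

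Of the 12 CC ligands TGF-β lowered 2 and raised 1 (25%, all genes 41.5%), and without TGF-β+2APB replicate 2 it lowered 3 and raised 2 of 10 (50%, all genes 36.1%). Ccl20, which attracts cells that carry Ccr6, was counted at 7646 and 7097 in DMSO, 454 and 428 in TGF-β and 342 and 249 in TGF-β+2APB. DMSO was far above every treated library, and replicates lay close together. Its fall with TGF-β (log2 fold change -4.06, SE 0.17, edgeR quasi-likelihood FDR 6.67e-05) and in TGF-β+2APB (log2 fold change -4.64, SE 0.17, edgeR quasi-likelihood FDR 2.84e-05) was called in each of the 6 leave-outs. Between the treated groups it just missed the threshold (log2 fold change -0.58, SE 0.16, edgeR quasi-likelihood FDR 0.0589), and was called without TGF-β+2APB replicate 1 (edgeR quasi-likelihood FDR 0.0289 without TGF-β+2APB replicate 1).

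Ccl2, the monocyte attractant, was counted at 12267 and 11578 in DMSO, 7198 and 7850.4 in TGF-β and 3667 and 4352 in TGF-β+2APB. It stepped down from DMSO to TGF-β and again to TGF-β+2APB with no overlap, and in both treated groups it still had the highest level per length of all members, 6612 and 3523 normalized counts per kb. The fall with TGF-β (log2 fold change -0.66, SE 0.11, edgeR quasi-likelihood FDR 0.00519) was not called without DMSO replicate 1 (edgeR quasi-likelihood FDR 0.0504 without DMSO replicate 1). The further fall with 2APB (log2 fold change -0.91, SE 0.11, edgeR quasi-likelihood FDR 0.00706) and the fall against DMSO (log2 fold change -1.57, SE 0.11, edgeR quasi-likelihood FDR 0.000177) were called in each leave-out. Ccl7, a neighbour of Ccl2 on chromosome 11 with similar receptors, was counted at 1022 and 841 in DMSO, 1239 and 1272 in TGF-β and 1372 and 1831 in TGF-β+2APB. It was higher in TGF-β+2APB than in DMSO (log2 fold change 0.78, SE 0.17, edgeR quasi-likelihood FDR 0.0109), though not without DMSO replicate 2 (edgeR quasi-likelihood FDR 0.0756 without DMSO replicate 2), and its difference between TGF-β and DMSO did not pass (log2 fold change 0.43, SE 0.17, edgeR quasi-likelihood FDR 0.0914).

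Ccl17, which attracts T cells through Ccr4, was counted at 57 and 31 in DMSO, 362 and 379.8 in TGF-β and 980 and 1056 in TGF-β+2APB. Each treatment step was higher than the last and the groups did not overlap. It rose with TGF-β (log2 fold change 3.07, SE 0.28, edgeR quasi-likelihood FDR 0.000702), rose further when 2APB was present (log2 fold change 1.46, SE 0.24, edgeR quasi-likelihood FDR 0.0165), and was 23-fold higher in TGF-β+2APB than in DMSO (log2 fold change 4.52, SE 0.29, edgeR quasi-likelihood FDR 0.000131). These 3 calls were made in each of the 6 leave-outs. Ccl22, the other Ccr4 ligand, lies next to Ccl17 and Cx3cl1 within 66.5 kb of chromosome 8, and was counted at 15.7 and 14.5 in DMSO, 15.6 and 0 in TGF-β and 0 and 82.9 in TGF-β+2APB, with no call.

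Ccl6 had the next highest level per length in TGF-β+2APB after Ccl2, 2438 normalized counts per kb, and this came from replicate 2. Its fitted log2 fold change between TGF-β+2APB and DMSO was 2.76 with all libraries (edgeR quasi-likelihood FDR 0.252) and -3.36 without replicate 2 (edgeR quasi-likelihood FDR 0.0648), and with replicate 1 left out in its place it was 3.75 (edgeR quasi-likelihood FDR 0.0212). The direction was set by which of the pair was kept. Without replicate 2 Ccl6 was called lower with TGF-β (log2 fold change -2.91, SE 0.83, edgeR quasi-likelihood FDR 0.0423). Ccl9, which lies in the same stretch of chromosome 11 with Ccl3, Ccl5 and Ccl6, was counted at 515 and 382 in DMSO, 878 and 778 in TGF-β and 271 and 2525 in TGF-β+2APB. It too was not called with 6 libraries, and between the treated groups it was called lower without replicate 2 (log2 fold change -1.61, SE 0.25, edgeR quasi-likelihood FDR 0.0206) and higher without replicate 1 (edgeR quasi-likelihood FDR 0.0197). Without replicate 2 it was also called higher with TGF-β than in DMSO (log2 fold change 0.91, SE 0.19, edgeR quasi-likelihood FDR 0.0154). Ccl5, Ccl25, Ccl27a and Ccl28 were each at most 282 normalized counts in any library and were not called with 6 libraries. Ccl5 was lower in TGF-β+2APB than in DMSO when replicate 2 was left out (log2 fold change -2.44, SE 0.58, edgeR quasi-likelihood FDR 0.0218). Ccl25 and Ccl27a overlap Elavl1 and Il11ra1 on the other strand.

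Cx3cl1, the CX3C ligand that is made as a membrane protein, was counted at 5963 and 6053 in DMSO, 7614 and 5981 in TGF-β and 4371 and 5057 in TGF-β+2APB. The TGF-β+2APB libraries were the lowest, but no comparison passed the test: the nearest was TGF-β+2APB against TGF-β (log2 fold change -0.53, SE 0.14, edgeR quasi-likelihood FDR 0.0519). That comparison was called without TGF-β replicate 1 or replicate 2 (edgeR quasi-likelihood FDR 0.0432 without TGF-β replicate 1 and 0.00618 without TGF-β replicate 2), and with all libraries by DESeq2.

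**Figure D3:**
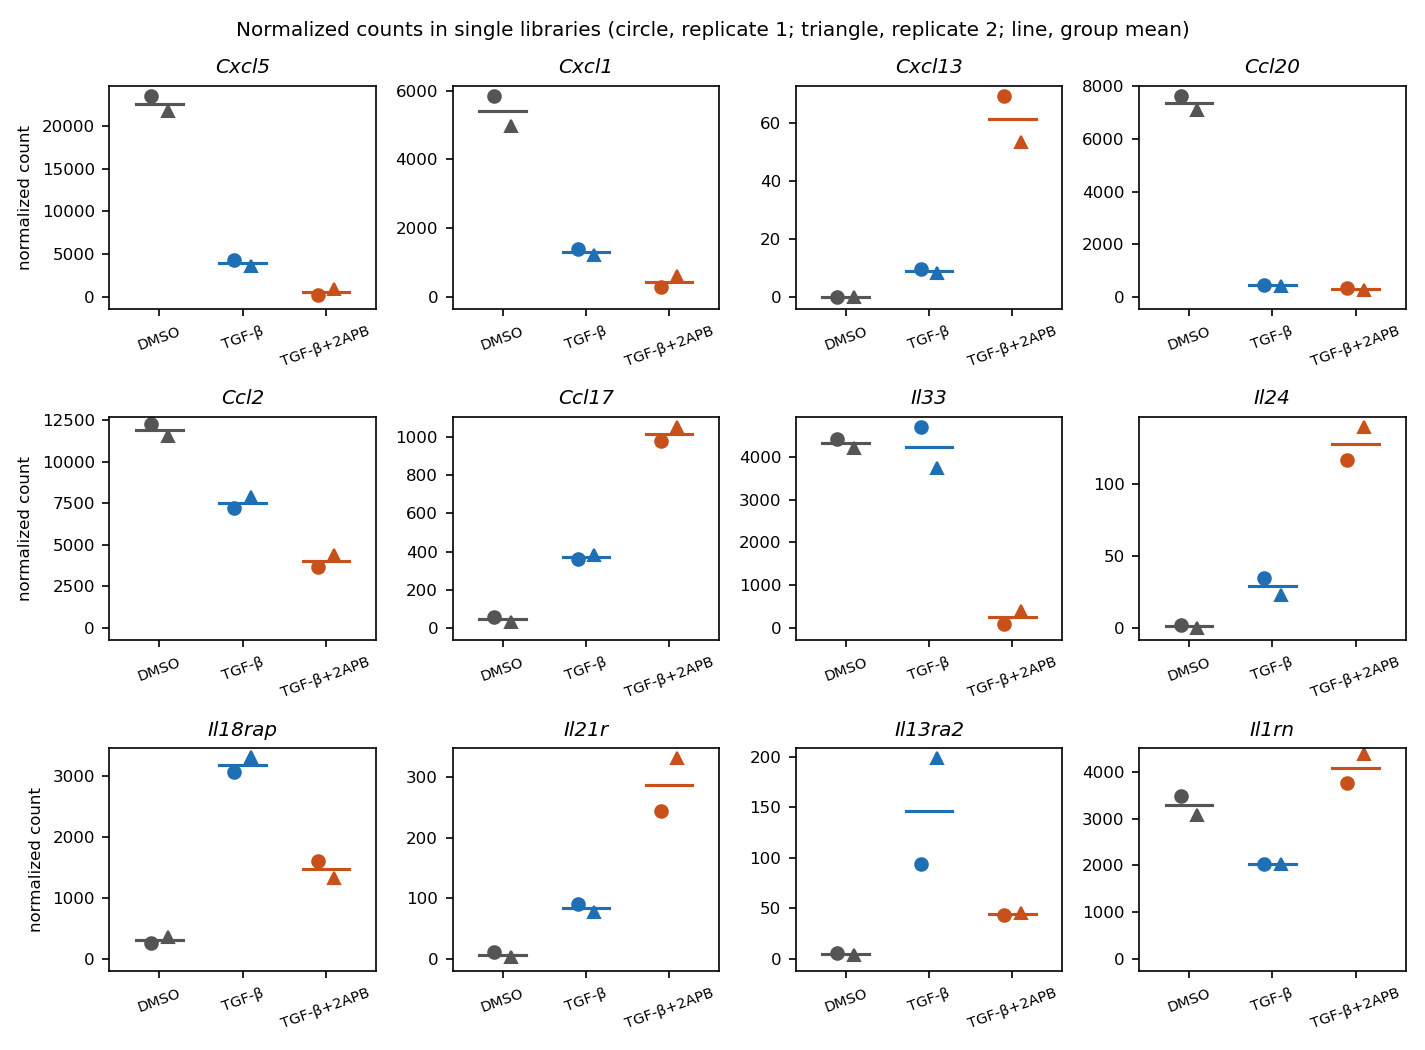
Normalized counts of 12 members are plotted on linear axes for each library, with replicate 1 as a circle, replicate 2 as a triangle and the group mean as a line. Cxcl5, Cxcl1, Ccl20 and Ccl2 are highest in DMSO, Cxcl13, Ccl17, Il24 and Il21r are highest in TGF-β+2APB, and Il18rap and Il13ra2 are highest in TGF-β.

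Of the 6 chemokine receptors, Cxcr4 was the one that edgeR called in a comparison, with or without TGF-β+2APB replicate 2. That is 16.7% of them with either treatment against DMSO, where 41.5% and 52.8% of all genes changed. This receptor of Cxcl12 was counted at 13.8 and 18.6 in DMSO, 37 and 45.6 in TGF-β and 85.1 and 82.9 in TGF-β+2APB, in groups that did not overlap. It was higher with TGF-β (log2 fold change 1.35, SE 0.33, edgeR quasi-likelihood FDR 0.0217), though not without a DMSO library (edgeR quasi-likelihood FDR 0.149 without DMSO replicate 1 and 0.0764 without DMSO replicate 2), and higher with TGF-β+2APB (log2 fold change 2.37, SE 0.33, edgeR quasi-likelihood FDR 0.00204) in each leave-out. Ccr1 and Ccr2 were at most 118 in 5 libraries, while TGF-β+2APB replicate 2 reached 1519 and 1004. Neither was called by edgeR with all libraries or without that library, while DESeq2 called Ccr1 between the treated groups with all libraries. Between these groups the log2 fold change without TGF-β+2APB replicate 2 was -1.952 for Ccr1 and -1.075 for Ccr2. With replicate 1 left out in its place it was 7.514 and 5.542, so its sign rests on which of the pair was kept.

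Of the 9 interleukins TGF-β raised 3 and lowered none (33.3%, all genes 41.5%), and without TGF-β+2APB replicate 2 it raised 3 of 8 (37.5%, all genes 36.1%). TGF-β+2APB against TGF-β raised 2 and lowered 2 (44.4%, all genes 17.5%), and without that library it raised none and lowered 2 of the 8 still tested (25%, all genes 9.54%). Il33, a nuclear alarmin of the IL-1 family that acts on Il1rl1, was counted at 4418 and 4221 in DMSO, 4710.1 and 3756 in TGF-β and 97 and 400.5 in TGF-β+2APB. DMSO and TGF-β overlapped, and both TGF-β+2APB libraries were far under them. It did not pass with TGF-β alone (log2 fold change -0.03, SE 0.51, edgeR quasi-likelihood FDR 0.971), and it had the largest change with 2APB among the called members (log2 fold change -4.09, SE 0.60, edgeR quasi-likelihood FDR 0.0116), 17-fold lower. Against DMSO it was lower by a like amount (log2 fold change -4.12, SE 0.60, edgeR quasi-likelihood FDR 0.00245). Without TGF-β+2APB replicate 2, the higher of the pair, the log2 fold change against TGF-β was -5.45, and the call was made in each of the 6 leave-outs.

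Il24, of the IL-10 family, had 2 and 0 deposited counts in DMSO, and its normalized counts were 35.1 and 22.8 in TGF-β and 117 and 140.1 in TGF-β+2APB. It passed the minimum count through the TGF-β+2APB libraries, the group in which it is high. From the summed counts it was 28.9-fold higher with TGF-β (95% interval 4.8 to 1182) and 128-fold higher with TGF-β+2APB (22.5 to 5076). These exact binomial intervals were taken on halved counts, since every deposited value was even, and cover counting error only. Both differences were called (edgeR quasi-likelihood FDR 0.00582 and 0.000914). Between the treated groups it was higher with 2APB (log2 fold change 2.14, SE 0.53, edgeR quasi-likelihood FDR 0.0458), but the FDR ran up to 0.0994 over the leave-outs, and the call was made in 1 of the 6, that without DMSO replicate 1. With no filter on the mean count it was not called (edgeR quasi-likelihood FDR 0.0666).

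Il34, a ligand of the Csf1 receptor, was counted at 57 and 62 in DMSO, 389.6 and 349 in TGF-β and 378 and 322 in TGF-β+2APB. Both treated groups were above DMSO and overlapped each other. It rose with TGF-β (log2 fold change 2.63, SE 0.19, edgeR quasi-likelihood FDR 0.000306) and in TGF-β+2APB (log2 fold change 2.55, SE 0.19, edgeR quasi-likelihood FDR 0.000201), and was not called between them. Il15, which acts on T and NK cells and is shown to them by Il15ra, was counted at 110.1 and 90.9 in DMSO, 203 and 243 in TGF-β and 402 and 395 in TGF-β+2APB and rose with TGF-β (log2 fold change 1.15, SE 0.19, edgeR quasi-likelihood FDR 0.006), a call not made without DMSO replicate 2 (edgeR quasi-likelihood FDR 0.0552 without DMSO replicate 2). It rose again with 2APB (log2 fold change 0.84, SE 0.19, edgeR quasi-likelihood FDR 0.0353), a call made in 1 of the 6 leave-outs, with an FDR of up to 0.115. Il15ra went the other way, at 252 and 285 in DMSO, 76 and 80.9 in TGF-β and 37.6 and 57.2 in TGF-β+2APB, and fell with TGF-β (log2 fold change -1.77, SE 0.28, edgeR quasi-likelihood FDR 0.00458).

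Il18, another IL-1 family cytokine, was counted at 177 and 169 in DMSO, 189 and 212 in TGF-β and 57.4 and 84.8 in TGF-β+2APB. The TGF-β+2APB libraries were the lowest, and the gene fell against TGF-β (log2 fold change -1.49, SE 0.26, edgeR quasi-likelihood FDR 0.0181) and against DMSO (log2 fold change -1.28, SE 0.26, edgeR quasi-likelihood FDR 0.00897). The first call was lost without a DMSO library (edgeR quasi-likelihood FDR 0.0633 without DMSO replicate 1 and 0.0639 without DMSO replicate 2), the other without DMSO replicate 1 (edgeR quasi-likelihood FDR 0.0562 without DMSO replicate 1). Il7 was lower in TGF-β+2APB than in DMSO (log2 fold change -1.26, SE 0.32, edgeR quasi-likelihood FDR 0.0191), but not without 1 of 3 libraries (edgeR quasi-likelihood FDR 0.0821 without DMSO replicate 1, 0.0921 without DMSO replicate 2 and 0.058 without TGF-β+2APB replicate 1). Il1a, Il1f9 and Il17d were not called.

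Of the 22 interleukin receptors TGF-β raised 6 and lowered 4 (45.5%, all genes 41.5%), and 6 and 5 of 20 without TGF-β+2APB replicate 2 (55%, all genes 36.1%). The addition of 2APB lowered 6 and raised none (27.3%, all genes 17.5%), and without that library it lowered 3 of 20 (15%, all genes 9.54%). Il1r1, Il1rl1 and Il18rap lie within 326.6 kb of chromosome 1, and TGF-β raised all 3, Il1rl1 not without a DMSO library (edgeR quasi-likelihood FDR 0.0529 without DMSO replicate 1 and 0.0606 without DMSO replicate 2). Il18rap, the accessory chain of the IL-18 receptor, was counted at 259 and 364 in DMSO, 3062 and 3304 in TGF-β and 1606 and 1322 in TGF-β+2APB. It was highest in TGF-β, with TGF-β+2APB between that and DMSO. It rose with TGF-β (log2 fold change 3.35, SE 0.20, edgeR quasi-likelihood FDR 0.000163) and was lower with 2APB (log2 fold change -1.12, SE 0.18, edgeR quasi-likelihood FDR 0.014), a call not made without TGF-β+2APB replicate 2 (edgeR quasi-likelihood FDR 0.0548 without TGF-β+2APB replicate 2). It stayed above DMSO (log2 fold change 2.23, SE 0.19, edgeR quasi-likelihood FDR 0.000329). Il1r1, the signalling receptor of IL-1, was counted at 3658 and 3461 in DMSO, 5065 and 5543 in TGF-β and 3051 and 2677 in TGF-β+2APB. It was higher with TGF-β (log2 fold change 0.57, SE 0.09, edgeR quasi-likelihood FDR 0.00544), not called without DMSO replicate 2 (edgeR quasi-likelihood FDR 0.0586 without DMSO replicate 2), and lower with 2APB than with TGF-β alone (log2 fold change -0.89, SE 0.10, edgeR quasi-likelihood FDR 0.00556). Il1rl1, the receptor of Il33, was counted at 29.5 and 26.9 in DMSO, 74 and 106 in TGF-β and 150.5 and 156 in TGF-β+2APB, and rose with TGF-β+2APB (log2 fold change 2.44, SE 0.30, edgeR quasi-likelihood FDR 0.00126).

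Il21r was counted at 11.8 and 2.07 in DMSO, 89.6 and 76.8 in TGF-β and 244 and 332 in TGF-β+2APB, in groups that did not overlap. It rose with TGF-β (log2 fold change 3.55, SE 0.64, edgeR quasi-likelihood FDR 0.0075) and in TGF-β+2APB (log2 fold change 5.34, SE 0.66, edgeR quasi-likelihood FDR 0.00131), and between these groups it missed the threshold (log2 fold change 1.79, SE 0.53, edgeR quasi-likelihood FDR 0.0737), though it was called there without either DMSO library (edgeR quasi-likelihood FDR 0.042 without DMSO replicate 1 and 0.0426 without DMSO replicate 2). Against DMSO the log2 fold change of Il21r with TGF-β was 5.25 without DMSO replicate 1 and 2.81 without DMSO replicate 2. With TGF-β+2APB it was 7.04 and 4.59. The ligand Il21 was not among the members. Il13ra1, a chain of the receptor for IL-4 and IL-13, was counted at 4448 and 4415 in DMSO, 2719 and 2532 in TGF-β and 932 and 921 in TGF-β+2APB, with replicates close together and no overlap. It fell with TGF-β (log2 fold change -0.76, SE 0.07, edgeR quasi-likelihood FDR 0.00079), fell again with 2APB (log2 fold change -1.50, SE 0.07, edgeR quasi-likelihood FDR 0.00234) and was called in each leave-out. Il22ra1, through which IL-22 acts on epithelium, was counted at 2486 and 2494 in DMSO, 1588 and 1199 in TGF-β and 511 and 758 in TGF-β+2APB. It fell with 2APB (log2 fold change -1.14, SE 0.22, edgeR quasi-likelihood FDR 0.0229) and against DMSO (log2 fold change -1.97, SE 0.22, edgeR quasi-likelihood FDR 0.000957), and the first of these was lost in 3 leave-outs (edgeR quasi-likelihood FDR 0.0683 without DMSO replicate 1, 0.0693 without DMSO replicate 2 and 0.0748 without TGF-β+2APB replicate 1).

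The receptors of the IL-17 family split. Il17re, a chain of the receptor for IL-17C in epithelium, was counted at 222 and 236 in DMSO, 40.9 and 33.2 in TGF-β and 19.8 and 17.8 in TGF-β+2APB and was lower with TGF-β (log2 fold change -2.62, SE 0.26, edgeR quasi-likelihood FDR 0.000986). Il17rd, at 364 and 320.2 in DMSO, 851 and 695 in TGF-β and 590 and 614 in TGF-β+2APB, was higher (log2 fold change 1.18, SE 0.15, edgeR quasi-likelihood FDR 0.00204). Il17ra, the chain they share, was 2646 and 2616 in DMSO, 3296 and 3210.3 in TGF-β and 3797 and 3897 in TGF-β+2APB and was higher by a small amount (log2 fold change 0.31, SE 0.06, edgeR quasi-likelihood FDR 0.0119), not called without a DMSO library (edgeR quasi-likelihood FDR 0.109 without DMSO replicate 1 and 0.117 without DMSO replicate 2). Il4ra and Il10rb were lower with 2APB than with TGF-β alone and were each called in 2 of the 6 leave-outs, with an edgeR quasi-likelihood FDR of up to 0.17 and 0.113. With no filter on the mean count Il4ra was not called (edgeR quasi-likelihood FDR 0.0535). Against DMSO, TGF-β+2APB raised Il12rb1 (log2 fold change 1.69, SE 0.34, edgeR quasi-likelihood FDR 0.00882) and lowered Il17rc (log2 fold change -1.07, SE 0.16, edgeR quasi-likelihood FDR 0.00294) and Il3ra (log2 fold change -1.04, SE 0.28, edgeR quasi-likelihood FDR 0.0248). Il12rb1 was not called without a DMSO library (edgeR quasi-likelihood FDR 0.0613 without DMSO replicate 1 and 0.0693 without DMSO replicate 2), and Il3ra not in 3 leave-outs (edgeR quasi-likelihood FDR 0.133 without DMSO replicate 1, 0.0994 without DMSO replicate 2 and 0.0893 without TGF-β+2APB replicate 1). Il2ra, Il5ra, Il12rb2 and Il20rb were not called by edgeR in any comparison with 6 libraries. Nor were Il2rg, Il7r and Il10ra, which were highest in TGF-β+2APB replicate 2. DESeq2 called Il2rg and Il10ra between the treated groups. Without TGF-β+2APB replicate 2 Il2rg was lower than in DMSO with TGF-β (log2 fold change -2.62, SE 0.35) and in TGF-β+2APB (log2 fold change -3.37, SE 0.50). With replicate 1 left out in its place, its log2 fold change between TGF-β+2APB and DMSO was 1.75. In the fit without replicate 2 the leukocyte markers tested also had negative log2 fold changes with TGF-β, from -0.76 for Cd68 to -2.95 for Tyrobp. The exception was Fcer1g (0.21). In TGF-β+2APB against DMSO they ran from -0.07 for Cd52 and -0.18 for Laptm5 to -4.07 for Itgam, and Fcer1g was at 0.68.

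The antagonists and decoys moved apart from each other. Il1rn, which blocks Il1r1, was counted at 3491 and 3070.1 in DMSO, 2029.7 and 2019 in TGF-β and 3758 and 4392 in TGF-β+2APB, with TGF-β under the other groups. It was lower with TGF-β (log2 fold change -0.70, SE 0.11, edgeR quasi-likelihood FDR 0.00427) and higher with 2APB than with TGF-β alone (log2 fold change 1.01, SE 0.11, edgeR quasi-likelihood FDR 0.00552), and both calls were made in each leave-out. Il13ra2, a receptor that binds IL-13 without the usual signal, was counted at 5.9 and 4.13 in DMSO, 93.5 and 199 in TGF-β and 43.6 and 45.4 in TGF-β+2APB. It was highest in TGF-β, where the replicates were far apart. It rose with TGF-β (log2 fold change 4.83, SE 0.53, edgeR quasi-likelihood FDR 0.00136) and in TGF-β+2APB (log2 fold change 3.11, SE 0.52, edgeR quasi-likelihood FDR 0.0042). Between the treated groups it was lower with 2APB (log2 fold change -1.72, SE 0.43, edgeR quasi-likelihood FDR 0.0486), a call made in 1 of the 6 leave-outs, with an FDR of up to 0.148, and not with no filter on the mean count (edgeR quasi-likelihood FDR 0.0628). Il18bp, which binds IL-18, was counted at 218 and 186 in DMSO, 105 and 122 in TGF-β and 83.2 and 132 in TGF-β+2APB and was lower with TGF-β+2APB than in DMSO (log2 fold change -0.91, SE 0.29, edgeR quasi-likelihood FDR 0.0446). That call was lost in 3 leave-outs (edgeR quasi-likelihood FDR 0.203 without DMSO replicate 1, 0.116 without DMSO replicate 2 and 0.119 without TGF-β+2APB replicate 1) and with no filter on the mean count (edgeR quasi-likelihood FDR 0.0515). It was also lower with TGF-β when TGF-β+2APB replicate 2 was left out (log2 fold change -0.81, SE 0.20, edgeR quasi-likelihood FDR 0.0297). The gene shares exon sequence with Numa1 on the other strand.

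Genes that carry these signals were read from the same fit. Over 62 such genes tested, 25 were called with TGF-β against DMSO (40.3%, all genes 41.5%), 28 with TGF-β+2APB against DMSO (45.2%, all genes 52.8%) and 11 between the treated groups (17.7%, all genes 17.5%). Without TGF-β+2APB replicate 2 the counts were 25, 29 and 12 of 58 (43.1%, 50% and 20.7%, against 36.1%, 40.1% and 9.54% of all genes), so that their place against the background depends on that library. The first count was 11 without DMSO replicate 1 (18%, all genes 20.7%) and 13 without DMSO replicate 2 (21%, all genes 21.7%), and the last was 7 without DMSO replicate 2 (11.3%, all genes 6.26%) and 30 without TGF-β replicate 2 (48.4%, all genes 40.4%). Of 14 NF-κB genes TGF-β raised 2 and lowered 4, TGF-β+2APB raised 1 and lowered 6 against DMSO, and 2APB added to TGF-β lowered 3 (42.9%, 50% and 21.4% called, against 41.5%, 52.8% and 17.5% of all genes). Nfkbia, the inhibitor that NF-κB itself induces, was counted at 7846 and 7163 in DMSO, 3543 and 3434 in TGF-β and 3104 and 3186 in TGF-β+2APB and fell with TGF-β (log2 fold change -1.10, SE 0.08, edgeR quasi-likelihood FDR 0.000287). Tnfaip3, of the same list, went the other way and rose with TGF-β (log2 fold change 0.61, SE 0.07, edgeR quasi-likelihood FDR 0.0019). Bcl3, a nuclear partner of NF-κB, was counted at 4715 and 4599 in DMSO, 3565 and 2812 in TGF-β and 1291 and 1914 in TGF-β+2APB and fell with 2APB (log2 fold change -0.99, SE 0.21, edgeR quasi-likelihood FDR 0.0284). Of 13 genes of IL-1 and IL-17 receptor signalling TGF-β raised 1 and lowered 4, TGF-β+2APB raised 1 and lowered 5 against DMSO, and added 2APB raised 1 and lowered 2 (38.5%, 46.2% and 23.1% called, against 41.5%, 52.8% and 17.5% of all genes). The first of these counts was 1 raised and 2 lowered without TGF-β+2APB replicate 2 (23.1%, all genes 36.1%). Irak3, a brake on that pathway, was lower with TGF-β (log2 fold change -1.93, SE 0.56, edgeR quasi-likelihood FDR 0.0384), and Sigirr, a decoy-like receptor of the IL-1 family, was higher (log2 fold change 1.164, SE 0.24, edgeR quasi-likelihood FDR 0.0119).

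Of 14 JAK-STAT genes tested TGF-β raised 3 and lowered 6, TGF-β+2APB raised 3 and lowered 7 against DMSO, and added 2APB raised 1 and lowered 2 (64.3%, 71.4% and 21.4% called, against 41.5%, 52.8% and 17.5% of all genes). The last of these counts was 1 raised and 4 lowered without TGF-β+2APB replicate 2 (35.7%, all genes 9.54%). Stat3 was counted at 18841 and 18138 in DMSO, 12728 and 10486 in TGF-β and 4944 and 5708 in TGF-β+2APB and Jak3 at 4633 and 4291 in DMSO, 2618 and 2229 in TGF-β and 1202 and 1302 in TGF-β+2APB. The groups of both genes stepped down without overlap, and 2APB lowered Stat3 (log2 fold change -1.12, SE 0.12, edgeR quasi-likelihood FDR 0.0059) and Jak3 (log2 fold change -0.95, SE 0.11, edgeR quasi-likelihood FDR 0.0061). Cish, of the same list, was higher with 2APB than with TGF-β alone (log2 fold change 0.64, SE 0.08, edgeR quasi-likelihood FDR 0.00809). Of 10 chemokine genes outside the symbol rule that were tested, 1 rose and 2 fell with TGF-β, 2 rose and 1 fell with TGF-β+2APB against DMSO, and 1 rose with added 2APB (30%, 30% and 10% called, against 41.5%, 52.8% and 17.5% of all genes). Without TGF-β+2APB replicate 2 the shares were 33.3%, 44.4% and 11.1% of 9 genes, against 36.1%, 40.1% and 9.54% of all genes. Ackr3, the scavenging receptor of Cxcl12, was counted at 145 and 186 in DMSO, 1958 and 1832 in TGF-β and 4904 and 4177 in TGF-β+2APB, rose with TGF-β (log2 fold change 3.52, SE 0.15, edgeR quasi-likelihood FDR 8.24e-05) and rose again with 2APB (log2 fold change 1.26, SE 0.14, edgeR quasi-likelihood FDR 0.00559). Of 8 colony-stimulating factor genes tested, Csf1 and Csf2 rose with both treatments against DMSO (25% called, against 41.5% and 52.8% of all genes). With TGF-β the edgeR quasi-likelihood FDR was 0.000848 and 0.00159. Csf1, at 7577 and 7283 in DMSO, 15741 and 14404 in TGF-β and 26644 and 23042 in TGF-β+2APB, rose again with 2APB (log2 fold change 0.72, SE 0.10, edgeR quasi-likelihood FDR 0.00932). None of 3 genes of IL-1 and IL-18 processing was called with 6 libraries. Casp4 was called when TGF-β+2APB replicate 2 was left out, lower than in DMSO with TGF-β (log2 fold change -2.89, SE 0.55, edgeR quasi-likelihood FDR 0.0116) and in TGF-β+2APB (log2 fold change -6.75, SE 1.09, edgeR quasi-likelihood FDR 0.00567). Pycard was counted at 51.1 and 10.3 in DMSO, 5.84 and 4.15 in TGF-β and 5.94 and 284 in TGF-β+2APB.

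Cxcl1, Cxcl2 and Cxcl5 lie with Cxcl15 within 146.6 kb of chromosome 5. The windows from 250 bases before to 50 bases after the start of a gene (RefSeq, GRCm38.p6) were searched on both strands for an NF-κB type motif of 10 letters, GGG followed by any 2 bases and then TTTCC. Of 32851 windows 535 held it (1.63%). By gene, 211 of 10014 genes tested with a window held it (2.11%), and so did 7 of the 46 members with a window (15.2%): Ccl9, Ccl20, Cxcl1, Cxcl2, Il1rn, Il4ra and Il17rc. A match describes the letters only. The windows of Cxcl1, Cxcl2 and Ccl20 are printed because these ligands were higher in both DMSO libraries than in both TGF-β libraries. Cxcl2 was not called by edgeR with 6 libraries. Of the other members with a match, Ccl9 and Il4ra had positive log2 fold changes with TGF-β (0.88 and 0.51), neither called by edgeR. Il1rn and Il17rc had negative ones (-0.70 and -0.49), the former called. Capitals mark the matches.
Cxcl1, chr5:90890995-90891294, plus strand: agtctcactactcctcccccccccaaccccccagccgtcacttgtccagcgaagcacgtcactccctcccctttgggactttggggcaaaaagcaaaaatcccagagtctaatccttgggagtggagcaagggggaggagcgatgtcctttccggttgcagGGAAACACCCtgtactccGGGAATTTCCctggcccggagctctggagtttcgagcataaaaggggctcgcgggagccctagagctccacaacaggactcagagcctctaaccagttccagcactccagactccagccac
Cxcl2, chr5:90903649-90903948, plus strand: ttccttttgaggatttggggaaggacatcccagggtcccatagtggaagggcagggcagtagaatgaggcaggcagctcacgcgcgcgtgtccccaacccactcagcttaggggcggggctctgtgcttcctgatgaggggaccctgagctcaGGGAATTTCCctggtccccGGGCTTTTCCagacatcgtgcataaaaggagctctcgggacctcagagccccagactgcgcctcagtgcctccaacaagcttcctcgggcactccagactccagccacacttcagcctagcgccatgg
Ccl20, chr1:83116516-83116815, plus strand: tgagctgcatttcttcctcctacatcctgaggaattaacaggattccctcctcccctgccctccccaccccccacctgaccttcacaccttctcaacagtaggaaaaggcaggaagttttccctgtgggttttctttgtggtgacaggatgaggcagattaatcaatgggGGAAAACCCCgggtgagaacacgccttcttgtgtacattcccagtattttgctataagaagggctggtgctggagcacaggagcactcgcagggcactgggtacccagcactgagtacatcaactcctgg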

How the data were processed

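RNA of NMuMG cells was sequenced as single-end reads in 6 libraries, 2 for each of 3 groups taken from the sample titles. Per the authors' methods and processing notes, reads were checked with FastQC 0.11.2, aligned with TopHat2 2.0.13 and counted on genes with featureCounts. The deposited values are raw counts per gene. The notes list the mouse build mm10, while the methods name a human build, and the symbols are mouse symbols. The strand setting is not given in the sources used here, so overlapping genes on opposite strands cannot be told apart. Every deposited value was even, for a reason not given there.

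Tests were run with edgeR 4.0.16 in R 4.3.3 (TMM scaling, 1 quasi-likelihood model of the 3 groups, FDR of 0.05 or less by Benjamini-Hochberg). Genes entered if their normalized counts averaged 20 or more. Where no tool or library is named, a call is of this test with all 6 libraries. The test was tried on simulated data. SE was derived from the log2 fold change and its F value. DESeq2 1.42.0 was an alternative, beside other scalings, no filter, halved counts, a replicate block and each library left out. Leaving out a library leaves its group with 1, which is assumed to vary like the others. The floor of 3 counts per library and the intervals cover counting error only. Positions and exon lengths are from GENCODE on GRCm38, to which all 62 members were matched by symbol. Python 3.11.15, pandas 2.3.3, scipy 1.17.1 and matplotlib 3.10.9 made tables and plots.

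Members and lists were chosen with earlier results of these data known. Full values were given to the members called in each comparison, at most the 10 largest by log2 fold change, and to the 5 with the highest level per length in any group. Of each pathway list, named genes are among the 3 largest changes. Other members with full values were chosen after their values were seen. A member and a marker that entered the counts are not reported here, and the figures leave out that member. Read-level data were not analysed here.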

Additional observations from a re-analysis of the deposited data

How the results depend on the processing

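With TGF-β against DMSO 24 members changed, and with TGF-β+2APB against DMSO 31. These counts stayed within 1.5 times under RLE scaling, library size alone, DESeq2, no filter, halved counts and the replicate block, and ran from 16 to 29 and from 24 to 38 when a library was left out. With TGF-β+2APB against TGF-β 17 changed, 27 by DESeq2 (12 higher and 15 lower), 9 with the replicate block and 9 to 24 when a library was left out (the cause was not tested). The numbers do not pair the libraries by any label, and deviations of libraries with the same number correlated at 0.148, -0.458 and -0.255 between groups. With the block 22, 28 and 9 members changed in the 3 comparisons, and with the TGF-β+2APB numbers exchanged, a choice made after seeing the data, 29, 33 and 21. Of the 24, 31 and 17 calls, 14, 22 and 6 were made under every alternative. No called member changed sign. Of the 38, 31 and 45 members without a call, 13, 11 and 17 did when a library was left out. Among those named by rule these were, with TGF-β, Cx3cl1 (-0.001 to 0.342) and Il33 (-0.195 to 0.125); with TGF-β+2APB against DMSO, Ccl6 (-3.364 to 4.404); against TGF-β, Ccl6 (-0.455 to 6.659), Cxcl15 (-5.381 to 0.02) and Il34 (-0.23 to 0.031). The 25, 28 and 11 pathway genes called became 26 by DESeq2 in the last comparison. Against TGF-β, DESeq2 called 10 members more and lost none; among the 10 were Ccl6, Ccl20, Ccr1, Cx3cl1, Il2rg, Il10ra, Il17ra, Il17rc and Il21r. Depth limits members with few counts, such as Cxcl13 and Il24 in DMSO.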
